A study of Mus musculus with 6 samples.

Results

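The cytochrome P450 genes were examined in cystic mouse kidneys that lacked miR-214, set against cystic kidneys that kept it. The members were all genes of the authors' deposited table whose symbol has the P450 form (Cyp, a family number, a subfamily letter and a gene number), without the Cyp1 and Cyp11 families and without Cyp17a1, Cyp21a1, Cyp24a1 and Cyp27b1. This rule gave 85 of 20138 genes, 3 of them with a pseudogene name. Of 88 protein-coding genes that fit the rule in GENCODE M21, 80 had a line in the table and the others were not analysed here. The group with the extra deletion, Pkd2-miR-214-KO, carried a Cre transgene under the Pkhd1 promoter, both copies of Pkd2 floxed and a null allele of miR-214. The comparison group, Pkd2-KO, carried the same Cre and the same floxed Pkd2 with miR-214 intact. Each group held 3 mice at postnatal day 35, and whole frozen kidney was sequenced. Pkhd1 is active mainly in kidney tubules, so Pkd2, which encodes the channel polycystin-2, was removed in both groups from tubule cells and not from every cell. The number of copies of the null allele and the sex of the mice were not given in the sources used here.

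P450 enzymes are heme proteins that insert an oxygen atom into lipids, steroids, drugs and toxins, taking electrons from the reductase encoded by Por. In kidney the Cyp4 enzymes hydroxylate fatty acids, and some of them turn arachidonic acid into a product that constricts vessels. Cyp2c and Cyp2j enzymes form epoxides that dilate vessels and change sodium transport. Many other members (most Cyp2a, Cyp2b, Cyp2c and Cyp3a genes, Cyp7a1 and Cyp8b1) are known mainly from hepatocytes.

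A candidate link between the deleted microRNA and these genes is a match to its seed, bases 2 to 8, in their 3' untranslated regions. Only the mature product miR-214-3p was used, and sites for the other product, miR-214-5p, were not searched. The miR-214-3p sequence is shown from RefSeq (GRCm38.p6) with the seed in capitals. It is followed by the matching site (capitals) in the 5 members that hold one and had a mean log2 CPM of at least 0, from GENCODE M21 transcripts.
miR-214-3p: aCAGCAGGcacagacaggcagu
Cyp2e1: gaCCTGCTGcccatcattat
Cyp2j13: gcccatggaagCCTGCTGagcacagaacc
Cyp4a12b: agctcaaatggCCTGCTGcctgccattct
Cyp26b1: gggttaacagcCCTGCTGggctctaggca
Cyp2u1: aaccctcctctCCTGCTGtgccatcagcc
The 7-base site CCTGCTG occurred in 8 of 76 members with an annotated 3' untranslated region (10.5%), against 3598 of 16889 genes of the whole table (21.3%). The members' regions were also shorter, with a median of 408 bases against 1040 bases. Folds of these 8 genes lay on both sides of zero, with a median of -0.13 on the log2 scale, where members without a site had a median of 0.62. Over all genes the medians were -0.014 with a site and 0.001 without. These differences were not tested. In the authors' deposited table Cyp2e1 had a log2 fold of -0.24 ± 0.46 (SE), Cyp2j13 -1.03 ± 0.83, Cyp4a12b -0.01 ± 0.55, Cyp26b1 0.34 ± 0.53 and Cyp2u1 -0.26 ± 0.37. The other 3 genes with a site, which had a mean log2 CPM under 0, had 5.35 ± 2.16 (Cyp2c29), 1.85 ± 1.47 (Cyp2b10) and -1.90 ± 1.27 (Cyp2b23) in the authors' deposited table. A match describes these letters and does not show that the RNA is bound.

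No P450 gene passed the authors' test. At an adjusted p under 0.05 (edgeR's likelihood ratio test with Benjamini-Hochberg adjustment over all genes), 0 of the 85 were called, where 0.124% of all genes were (0.104% with a positive and 0.0199% with a negative fold), and the smallest adjusted p of a member was 0.134 in the authors' deposited table. Without adjustment 25 members (29.4%) had a p under 0.05, where 4.82% of all genes did. Of these, 24 had a positive fold (3.1% of all genes) and 1 a negative one (1.71% of all genes). Log2 folds are Pkd2-miR-214-KO over Pkd2-KO, so a positive one means more RNA in kidneys without miR-214. The errors are approximate standard errors, the size of the fold over the square root of its likelihood ratio. Values per library were not analysed here, so the depth of the libraries is unknown and neither group means nor overlap between animals can be given.

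The folds of the family split by how much RNA the genes had. CPM is the read count scaled to the size of the library, and the mean log2 CPM runs over both groups. Among the 37 members with a mean log2 CPM of at least 0, the median log2 fold was 0.16, with 25 positive and 12 negative, and 4 had an unadjusted p under 0.05 (10.8%, where 4.08% of all genes at that level did). Among the 48 members under that level the median was 1.72, with 36 positive and 12 negative, and 21 had an unadjusted p under 0.05 (43.8%, where 6.73% of all genes at that level did). Over all genes the median log2 fold was 0.00 in both ranges of expression. A log2 fold over 2 was found for 23 members (27.1%, where 2.38% of all genes had one), 22 of them with a mean log2 CPM under 0, where 7.28% of all genes under that level exceed it.

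**Figure D1:**
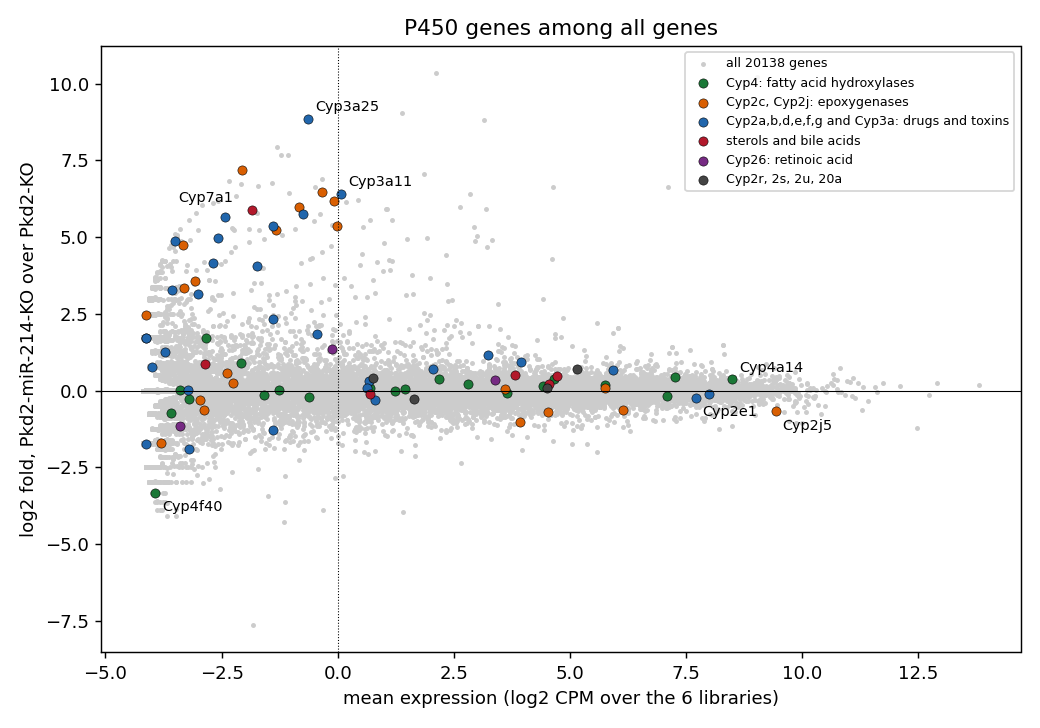
Each point is a gene of the authors' deposited table, with the mean expression in log2 CPM on the horizontal axis and the log2 fold of Pkd2-miR-214-KO over Pkd2-KO on the vertical axis; the 85 P450 genes are coloured by role, all 20138 genes are grey, and the dotted line marks a mean log2 CPM of 0. The P450 genes with a log2 fold over 2 lie left of the dotted line apart from Cyp3a11 (mean log2 CPM 0.07), and those with the most reads lie near a fold of 0.

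The Cyp2c and Cyp3a genes held the largest positive folds. These subfamilies oxidise drugs and, in the case of Cyp2c, also arachidonic acid, and most are known from liver. Of 14 Cyp2c genes 10 had a positive fold, 9 a log2 fold over 2, and the median was 4.17. All 8 Cyp3a genes had a positive fold, 5 of them over 2, with a median of 3.22. In the authors' deposited table Cyp3a25 (chromosome 5, 145977194 to 146009618, GENCODE M21 on the assembly of mm10) had a log2 fold of 8.86 ± 2.44 at a mean log2 CPM of -0.63, an unadjusted p of 0.000279 and an adjusted p of 0.134. This was the smallest p of the 85 genes, and its approximate 95% interval ran from 4.08 to 13.6. Cyp3a11, the main drug-oxidising Cyp3a enzyme of mouse liver and a target of the nuclear receptor PXR, stood at 6.42 ± 2.21 with an adjusted p of 0.386 in the authors' deposited table, and was the 1 member of this size with a mean log2 CPM above 0. Cyp3a13, which is also expressed outside the liver, had 0.70 ± 0.37 at a mean log2 CPM of 2.05, while Cyp3a57 had 0.01 ± 0.86 in the authors' deposited table.

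The Cyp2c genes on chromosome 19 had large positive folds in runs of neighbours and negative or small ones between them, and no difference between neighbours was tested. From Cyp2c55 (start 39007019) to Cyp2c70 (end 40187333), 13 of these genes lie in a single stretch of the annotation. At the left end of the stretch, Cyp2c55 and Cyp2c65, which are known from the intestine, had log2 folds of -1.72 ± 1.48 and -0.29 ± 0.79 in the authors' deposited table. Their neighbour Cyp2c29, a hepatic gene, had 5.35 ± 2.16, and the next gene, Cyp2c38, had -0.62 ± 0.84 in the authors' deposited table. Of the genes in the middle, Cyp2c39, Cyp2c67, Cyp2c68 and Cyp2c40 ranged from 2.48 to 5.23, and Cyp2c69 had 0.58 ± 1.01 in the authors' deposited table. The 4 genes at the right end had log2 folds of 5.99 ± 2.02 (Cyp2c37), 7.18 ± 2.13 (Cyp2c54), 6.46 ± 2.28 (Cyp2c50) and 6.17 ± 2.31 (Cyp2c70) in the authors' deposited table, each with an adjusted p between 0.206 and 0.531. Cyp2c44, an epoxygenase of the kidney that lies apart at 44005022 to 44029256 (named Cyp2c23 by RefSeq), was the 1 Cyp2c gene with a mean log2 CPM of at least 0. In the authors' deposited table its fold was -0.68 ± 0.47 and its mean log2 CPM 4.52.

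Positive folds were also more frequent than negative ones in the other subfamilies that act on drugs and toxins. Of 22 genes in the Cyp2a, Cyp2b, Cyp2d, Cyp2e, Cyp2f and Cyp2g subfamilies 16 had a positive fold, with a median of 1.05. An unadjusted p under 0.05 was found for 7 of the 22 (31.8%, where 4.82% of all genes had one), each with a positive fold. Together with the 8 Cyp3a genes described above, the role group held 30 genes, 24 with a positive fold and 10 with an unadjusted p under 0.05 (33.3%), and its median was 1.49. That median was 0.48 for the 10 genes with a mean log2 CPM of at least 0, and 0.10 for the 11 genes whose SE was at most 1. The SE is computed from the fold, and all 23 members with a log2 fold over 2 had an SE of at least 1.29. The limit on SE thus takes out every such gene, and the lower median is no separate check. Cyp2a12, a steroid hydroxylase of liver, had a log2 fold of 5.75 ± 2.06, while Cyp2a5, which oxidises coumarin and nicotine and had a mean log2 CPM of 3.95, had 0.95 ± 0.55 in the authors' deposited table. Cyp2d13, a transcribed pseudogene in RefSeq, had 5.67 ± 1.72 and Cyp2d10 4.06 ± 1.43 in the authors' deposited table. The Cyp2d genes with the most reads were closer to zero, at -0.09 ± 0.33 for Cyp2d26 (mean log2 CPM 8.0) and 0.66 ± 0.29 for Cyp2d22 (mean log2 CPM 5.92) in the authors' deposited table. Cyp2e1, which oxidises ethanol and acetone, had a log2 fold of -0.24 with an approximate 95% interval of -1.14 to 0.66 in the authors' deposited table.

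**Figure D2:**
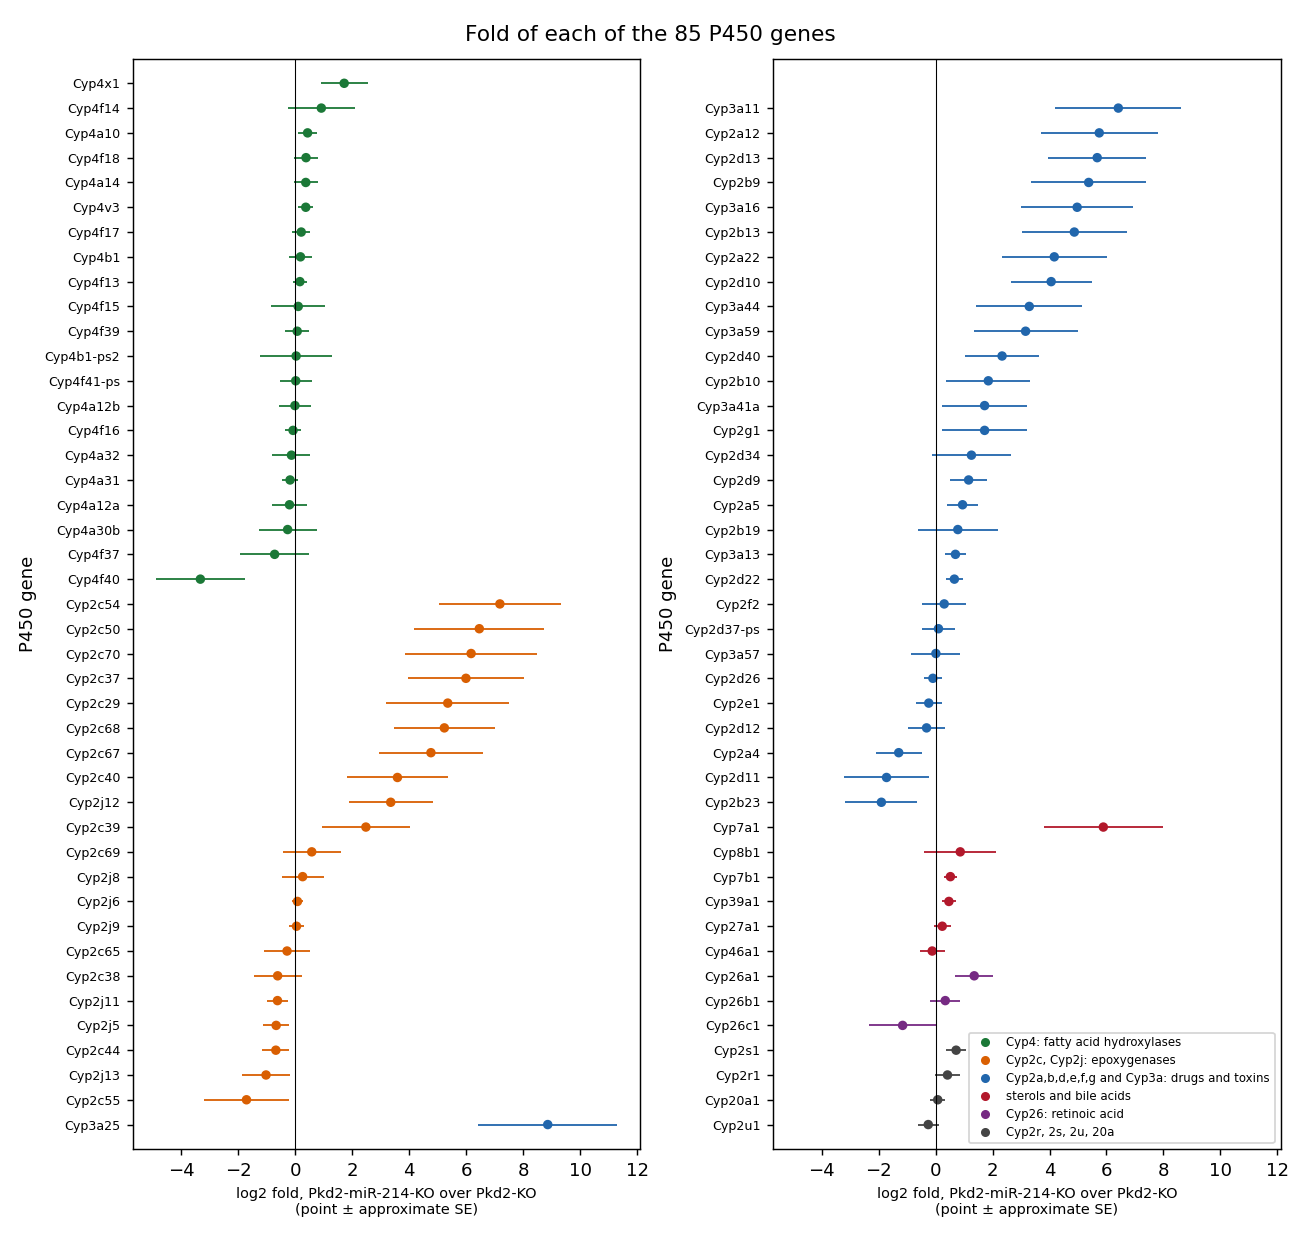
Log2 folds of Pkd2-miR-214-KO over Pkd2-KO (horizontal axis) for each of the 85 P450 genes (rows), with bars of 1 approximate SE on either side, coloured by role and sorted by fold within a role. The genes with the largest positive folds, such as Cyp3a25 (8.86), also have the longest bars (SE 2.44), and most Cyp4 genes sit near 0 with short ones.

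Most fatty acid hydroxylases of the Cyp4 family had folds near zero. Of 21 genes 13 were positive and 8 negative, the median log2 fold was 0.07, and 2 had an unadjusted p under 0.05 (9.52%, where 4.82% of all genes did). In the Cyp4a subfamily, of which only some enzymes make the vasoconstrictor product of arachidonic acid, all 7 log2 folds lay between -0.27 and 0.43. In the authors' deposited table Cyp4a14 had 0.37 with an approximate 95% interval of -0.44 to 1.17, Cyp4a10 0.43 with -0.23 to 1.09 and Cyp4a31 -0.19 with -0.74 to 0.37. Cyp4a12a and Cyp4a12b, the androgen-dependent pair, had -0.21 ± 0.60 and -0.01 ± 0.55 in the authors' deposited table. These 2 genes share 48.9% and 49.4% of their 50-base words with other P450 transcripts, mostly each other's, so reads may have been split between them. Cyp4a32 (-0.14 ± 0.67) and Cyp4a30b (-0.27 ± 1.02) had few reads in the authors' deposited table.

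The 10 Cyp4f genes, some of which inactivate leukotriene B, ranged from -3.34 to 0.91 with a median of 0.08. The value at the lower end, Cyp4f40 with -3.34 ± 1.56 at a mean log2 CPM of -3.94 according to the authors' deposited table, was the 1 member with a negative fold and an unadjusted p under 0.05 (0.0328). At such levels the fitted fold rests on few reads and depends on the prior count. The same limit applies to large positive folds at low levels, as in Cyp2b13 (mean log2 CPM -3.50), Cyp2c67 (-3.33), Cyp3a44 (-3.57) and Cyp2j12 (-3.31). Cyp4f18, a gene of neutrophils and other myeloid cells, had 0.37 ± 0.43, Cyp4f13 0.16 ± 0.25 and Cyp4f16 -0.08 ± 0.27 in the authors' deposited table. Cyp4b1, found in lung and kidney, had 0.18 ± 0.39, Cyp4v3, a fatty acid hydroxylase, 0.37 ± 0.26 and Cyp4x1 1.71 ± 0.83 (adjusted p = 0.956) in the authors' deposited table.

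Among the Cyp2j epoxygenases the genes with more reads had negative or near-zero folds. Cyp2j5, an arachidonic acid epoxygenase abundant in the proximal tubule, had the highest level of the 83 members with a transcript length, at a mean log2 CPM per kilobase of 8.20. It was followed on that scale by Cyp2d26 (7.23), Cyp4a14 (7.16) and Cyp2e1 (6.83). Its log2 fold was -0.67 with an approximate 95% interval of -1.57 to 0.22 in the authors' deposited table. Cyp2j11 had -0.63 ± 0.38 and Cyp2j13, a male-biased kidney gene, -1.03 ± 0.83, while Cyp2j6 had 0.07 ± 0.19 and Cyp2j9 0.04 ± 0.27 in the authors' deposited table. Cyp2j6 had the smallest SE of all members. The 2 Cyp2j genes with a mean log2 CPM under 0, Cyp2j8 and Cyp2j12, had 0.26 ± 0.74 and 3.35 ± 1.47 in the authors' deposited table. Taken with Cyp2c, the epoxygenase group of 21 genes had a median log2 fold of 0.58, but the 6 with a mean log2 CPM of at least 0 had a median of -0.65, with 4 negative.

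Sterol and bile acid enzymes had mostly positive folds, 5 of 6 genes, with a median of 0.49. Cyp7a1, the rate-limiting enzyme of bile acid synthesis in liver, stood at 5.89 ± 2.09 (adjusted p of 0.426) in the authors' deposited table, with a mean log2 CPM of -1.84. The oxysterol hydroxylase Cyp7b1 had 0.52 ± 0.24 (unadjusted p = 0.0318), Cyp39a1, which also hydroxylates an oxysterol, 0.47 ± 0.25 and Cyp27a1, the mitochondrial sterol hydroxylase, 0.23 ± 0.30 in the authors' deposited table. Cyp8b1, which sets the type of bile acid made, had 0.87 ± 1.26, and Cyp46a1, the cholesterol hydroxylase of neurons, had -0.12 ± 0.45 in the authors' deposited table. Of the 3 enzymes that degrade retinoic acid, Cyp26a1 had 1.36 ± 0.67, Cyp26b1 0.34 ± 0.53 and Cyp26c1 -1.16 ± 1.19 in the authors' deposited table. Outside these groups lay Cyp2s1 (0.72 ± 0.34, unadjusted p = 0.0351), the vitamin D hydroxylase Cyp2r1 (0.42 ± 0.42), the fatty acid hydroxylase Cyp2u1 (-0.26 ± 0.37) and Cyp20a1 (0.07 ± 0.26) in the authors' deposited table, none of which passed. The 4 members with a mean log2 CPM of at least 0 and an unadjusted p under 0.05 were Cyp3a11, Cyp2d22, Cyp7b1 and Cyp2s1, all with positive folds, and Cyp2d22 was chosen for mention after its values were seen.

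Markers of hepatocytes had positive folds beside those of the liver-type P450 genes. Of 20 hepatocyte markers 19 had a positive fold, with a median of 2.32, 14 had an unadjusted p under 0.05 (70%, where 4.82% of all genes had one) and 0 passed after adjustment. In the authors' deposited table Alb, which encodes albumin, had a log2 fold of 6.64 ± 2.05 at a mean log2 CPM of 7.11, Serpina3k 6.39 ± 1.75, Apoa1 5.92 ± 1.63 and Mup3 -0.75 ± 1.46. Fibrinogen genes and Ttr had smaller folds, from 0.35 ± 0.38 for Ttr to 1.17 ± 0.69 for Fgb in the authors' deposited table. So did Serpina1a (0.19 ± 0.34), Serpina1b (0.53 ± 0.69), Trf (0.92 ± 0.40) and Apob (1.15 ± 0.60) in the authors' deposited table. The markers' summed level in each group cannot be given without values per library, and the part that hepatocyte RNA has in the P450 folds was not tested. In bulk kidney fewer cells of a type and less RNA per cell cannot be told apart.

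The SE was large for many of these genes and in several lists. The SE of the 23 P450 genes with a log2 fold over 2 lay at a median percentile of 98.4 among genes within 0.5 log2 CPM of the same mean, and 19 of the 23 lay at or above the 95 percentile. The median percentile was 99.2 for the hepatocyte markers, 99.8 for the sex-chromosome genes, 99.6 for the blood markers, 97.2 for the B cell markers, 95.7 for the adrenal cortex markers and 94.4 for the proximal tubule markers. The SE is computed from the fold, and the genes it was ranked against were not matched on fold. Genes with large folds therefore tend to rank high, and the percentiles do not measure the spread between animals. Which animals carried the reads cannot be read from the table.

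**Figure D3:**
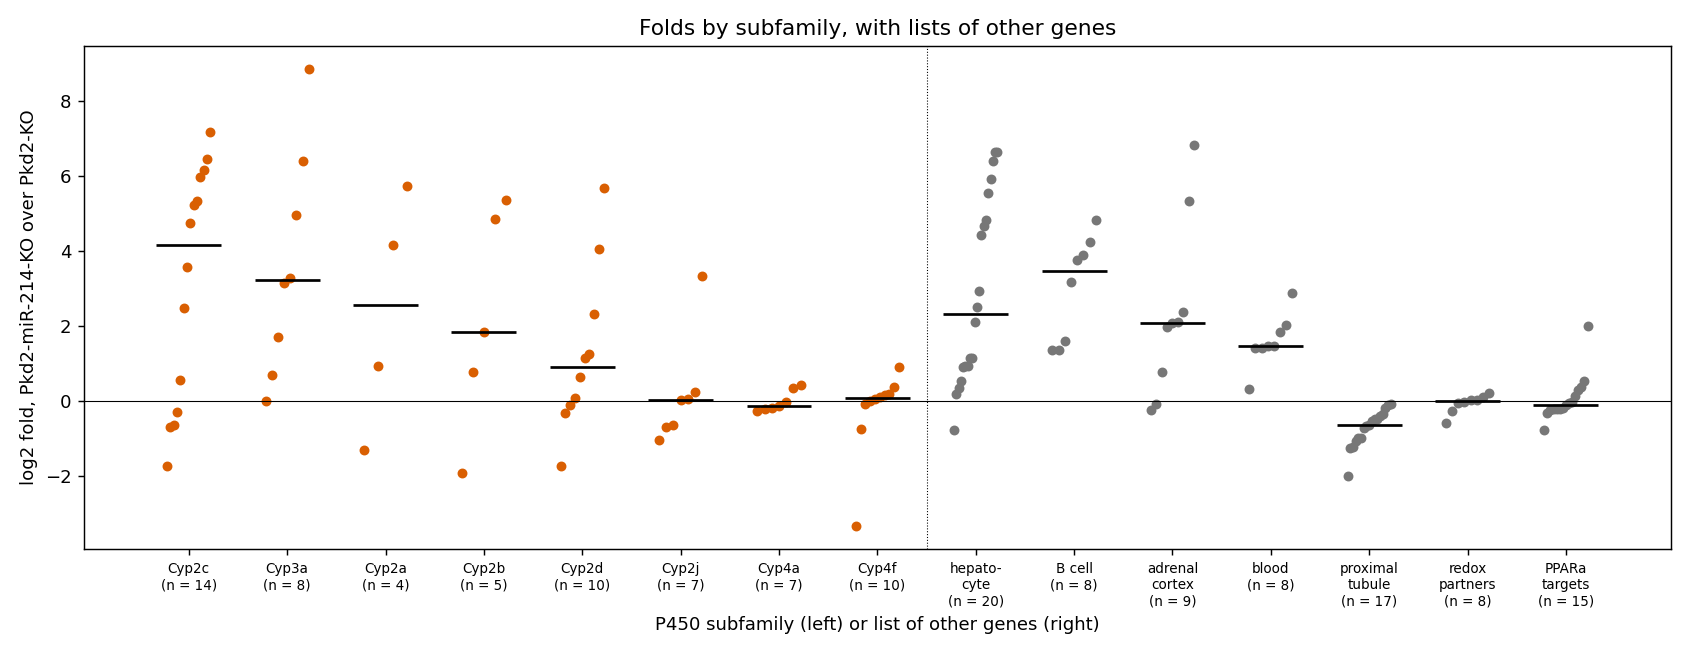
Log2 folds of Pkd2-miR-214-KO over Pkd2-KO (vertical axis) for the P450 subfamilies with at least 4 genes (orange) and for lists of other genes (grey), one point per gene, with the median as a bar. The medians of Cyp2c (4.17) and Cyp3a (3.22) lie above 0, as do those of the B cell (3.48), hepatocyte (2.32), adrenal cortex (2.10) and blood (1.47) markers, and those of Cyp4a (-0.14), Cyp4f (0.08) and Cyp2j (0.04) lie near 0.

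Other lists were set beside the P450 genes. Proximal tubule markers, the cells in which most renal P450 RNA is found, had mean log2 CPM from 3.90 to 12.5 and a median log2 fold of -0.62, with 17 of 17 negative and 0 past the adjusted threshold. The smallest p was that of Slc22a12, the urate transporter gene, with -1.24 ± 0.38 (adjusted p = 0.223), and Slc7a13, an amino acid transporter gene, had -2.0 ± 0.78 in the authors' deposited table. Adrenal cortex markers had a median of 2.10 with 7 of 9 positive and 0 past the threshold, and Hsd3b1 had 5.34 ± 1.98 in the authors' deposited table. B cell markers had a median of 3.48 (8 of 8 positive, 0 past the threshold, Ms4a1 4.23 ± 1.14 in the authors' deposited table), and blood markers a median of 1.47 (8 of 8 positive, 0 past the threshold). What part these cells have in the P450 values was not tested.

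Several members are known to differ between male and female mice, and the sex of these animals was not given in the sources used here. Xist, made in female cells, stood at 10.2 ± 2.36 (adjusted p of 0.0168) and was the 1 of 6 sex-chromosome genes that rose, while Y-linked Ddx3y had -0.23 ± 1.54 in the authors' deposited table. Male-biased kidney genes had a median of -0.61, with 8 of 9 negative and 0 past the threshold, and the lowest p-values of that list were those of Slc22a12 and Slc7a13, which are also in the proximal tubule list. Of the female-biased liver P450 genes, Cyp2b9 had 5.38 ± 2.03, Cyp2b13 4.87 ± 1.85, Cyp3a16 4.97 (adjusted p of 0.627), Cyp3a44 3.29 ± 1.86, Cyp3a41a 1.72 ± 1.49 and Cyp2a4 -1.29 ± 0.81 in the authors' deposited table. Of the male-biased ones Cyp2d9 had 1.16 ± 0.64 in the authors' deposited table, and the others (Cyp4a12a, Cyp4a12b, Cyp7b1 and Cyp2j13, given above) lay between -1.03 and 0.52. Of the 6 female-biased genes named, 5 lay above every male-biased one named, and Cyp2a4 lay below them all. The named genes are a selection and not a full list of sex-biased members. All 6 female-biased ones had a mean log2 CPM under 0, where the median log2 fold of the 48 members was 1.72. Of the male-biased ones only Cyp4a12a did (-0.63). The parts of sex and of expression level in these folds were not tested.

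Genes that serve or control the P450 enzymes had no call. Among 8 redox and heme partners, 4 folds were above zero, the median was 0.01, and in the authors' deposited table Por had 0.04 with an approximate 95% interval of -0.47 to 0.55 and Alas1, which starts heme synthesis, -0.57 ± 0.28 (adjusted p = 0.976). Of 21 transcription factors of P450 genes 7 were positive, with a median of -0.11 and 0 past the threshold. Among them the clock output gene Dbp had -1.03 ± 0.41 with an adjusted p of 0.648 in the authors' deposited table. Hnf4a, which drives many liver and proximal tubule genes, had -0.51 ± 0.32, the PXR gene Nr1i2 -0.03 ± 0.34 and the CAR gene Nr1i3 1.40 ± 0.66 in the authors' deposited table. Enzymes of eicosanoids and epoxides had a median of 0.27 (8 of 12 positive, 0 past the threshold), and Ptges, a prostaglandin synthase gene, had 0.91 ± 0.33, Alox5 1.02 ± 0.49 and Ephx2, which hydrolyses the epoxides, -0.22 ± 0.28 in the authors' deposited table. Targets of PPARa, the receptor that induces Cyp4a10 and Cyp4a14, had a median of -0.09 (5 of 15 positive, 0 past the threshold), with Angptl4 at -0.76 ± 0.35 and the liver fatty acid binding protein gene Fabp1 at 2.0 ± 1.04 in the authors' deposited table.

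The promoters of members were searched for 5 short motifs. RefSeq starts (GRCm38.p6) were available for 64 members. The 250 bases before the start are shown as examples for Cyp3a11 and Cyp2c70, which had log2 folds over 6. Cyp3a25 (8.86) and Cyp2c50 (6.46) had larger folds, lacked the letters CAAAGTCCA described below and are not shown. Also shown are Cyp2j5 and Cyp2e1, which ranked 1 and 4 by level per kilobase and had negative folds. Searched motifs are in capitals.
Cyp3a11 (chr5:145879855-145880104, minus strand): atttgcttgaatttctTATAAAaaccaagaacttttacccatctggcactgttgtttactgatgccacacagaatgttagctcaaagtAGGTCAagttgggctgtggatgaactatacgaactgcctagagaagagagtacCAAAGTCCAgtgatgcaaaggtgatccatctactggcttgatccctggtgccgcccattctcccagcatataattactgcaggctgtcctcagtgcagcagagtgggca
Cyp2c70 (chr19:40187287-40187536, minus strand): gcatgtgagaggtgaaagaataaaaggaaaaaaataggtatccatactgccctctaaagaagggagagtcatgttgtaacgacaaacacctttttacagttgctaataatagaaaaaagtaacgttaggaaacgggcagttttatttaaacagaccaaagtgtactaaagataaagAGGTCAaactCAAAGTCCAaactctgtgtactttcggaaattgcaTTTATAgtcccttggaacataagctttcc
Cyp2j5 (chr4:96664120-96664369, minus strand): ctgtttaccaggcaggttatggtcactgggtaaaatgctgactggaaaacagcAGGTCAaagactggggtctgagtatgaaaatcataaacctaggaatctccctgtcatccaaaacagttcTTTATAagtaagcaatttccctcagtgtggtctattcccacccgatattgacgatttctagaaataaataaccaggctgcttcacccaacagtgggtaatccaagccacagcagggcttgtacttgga
Cyp2e1 (chr7:140763569-140763818, plus strand): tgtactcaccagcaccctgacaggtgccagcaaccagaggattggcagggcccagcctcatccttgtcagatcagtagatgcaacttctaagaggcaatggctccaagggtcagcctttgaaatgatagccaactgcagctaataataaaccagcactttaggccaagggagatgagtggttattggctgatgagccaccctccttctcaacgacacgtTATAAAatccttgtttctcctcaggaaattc
The letters CAAAGTCCA, a form of the site bound by HNF4, were found on either strand in 10 of 71 promoters of members (14.1%), each of a different gene, against 0.384% of 32851 promoters in the RefSeq table. Those genes were Cyp2c40, Cyp2c65, Cyp2c67, Cyp2c68, Cyp2c69, Cyp2c70, Cyp3a11, Cyp3a16, Cyp3a41a and Cyp8b1. Of the 10, 6 had a log2 fold over 2, beside 14 of the 54 members without these letters. Over all genes 2.38% had such a fold, and 7.28% of those with a mean log2 CPM under 0. All but Cyp8b1 are Cyp2c or Cyp3a genes, subfamilies in which 9 of 14 and 5 of 8 members had such a fold. Many of the 10 are close paralogs with shared sequence, so they are not independent of each other. Whether the letters go with the fold was not tested. The TATA box letters TATAAA were in 33.8% of the members' promoters and 12.4% of all, the nuclear receptor core AGGTCA in 21.1% and 14.0%, the HNF1 core GTTAAT in 14.1% and 6.43%, and the D box TTATGTAA in 0 of 71 and 0.819%, each on either strand and with overlaps between motifs allowed.
The letters are a description of these windows and say nothing of binding in these kidneys.

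The lowest genes and the close paralogs set a limit. At a mean log2 CPM under -4 lay 4 members, and 2 of them, Cyp3a41a and Cyp2g1, had the same log2 fold of 1.72, which 146 genes of the whole table share within 0.005. Cyp2d11 had -1.72, a value shared by 180 genes, and Cyp2c39 had 2.48, shared by 20 genes, in the authors' deposited table. Of 83 members with a transcript in GENCODE M21, 27 shared over 20% of the 50-base words of their longest transcript with another P450 gene, the highest being Cyp3a41a with 98.6%, and values of such genes are uncertain where reads could be split among copies.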

How the data were processed

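RNA from 6 kidneys was sequenced, 3 per genotype, and 1 table of 20138 genes was used. Per the file headers it holds the authors' log2 fold, mean log2 CPM, likelihood ratio (a score on 1 degree of freedom), p-value and adjusted p-value. TopHat2 2.0.12 and edgeR, with the mm10 build, appear in the submitters' processing notes, and neither settings nor filters nor strand use were stated in the sources used here. The likelihood ratio gave back every deposited p-value within 6.25e-15, and Benjamini-Hochberg adjustment over all genes the adjusted ones within 5.1e-14. The headers do not state the direction of the fold. Mir214, which the null allele removes, gave it, since its fold in the authors' deposited table was -7.62 on the log2 scale, and is therefore no independent check of the labels. Pkd2, floxed in both groups, had -0.11 ± 0.23 in the authors' deposited table. A stranded kit for total RNA is named in the labels' protocols, and polyadenylated RNA in the series text. The series text calls the mice of a group biological replicates.

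The SE and the 95% interval are approximate and poor at low counts. The code for the SE and the adjustment was run on simulated folds with the same known SE for every gene. That simulation held no read counts, so it cannot show how good the SE is at low counts. The P450 genes and the lists were chosen with earlier results of these data known, and no test was made over a list. Cyp46a1 was counted with the sterol enzymes. Named genes were, per role, the 3 with the smallest p and the 2 with the highest mean log2 CPM, the 3 largest folds per direction at a mean log2 CPM of at least 0, all Cyp4a, Cyp2j and Cyp2e genes, and up to 2 per list with the smallest p. Some genes of the lists are not reported here by name. Others illustrate a subfamily and were chosen after their values were seen. The longest 3' untranslated region per protein-coding gene was searched for the seed site of miR-214-3p only. GENCODE M21 symbols matched 83 of the 85 genes and RefSeq gave the positions of the other two. Scripts ran under Python 3.11.15 with numpy 2.4.6 and scipy 1.17.1 for the calculations, pandas 2.3.3 for tables and matplotlib 3.10.9 for figures.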

Additional observations from a re-analysis of the deposited data

How the results depend on the processing

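No P450 gene was called at an adjusted p threshold of 0.1, with adjustment over genes with a mean log2 CPM of at least 0 or of at least 1, or with the likelihood ratio referred to an F distribution on 1 and 4 degrees of freedom (0 of 85 each, with 28, 19, 19 and 0 genes called in the whole table). The count with an unadjusted p under 0.05 moved from 25 of 85 to 4 of 37 at a mean log2 CPM of at least 0, to 3 of 30 at a mean of at least 1, and to 10 of 85 with the F distribution (1.2% of all genes). The median log2 fold of the 85 genes, 0.37, was 0.16 and 0.17 with those expression limits and 0.09 without the 39 genes whose SE is over 1. It was 0.42 without the 3 genes with a pseudogene name, a setting that keeps Cyp2d13. The median of the epoxygenases changed sign, from 0.58 to -0.65 with either expression limit and to -0.62 without genes whose SE is over 1. The median of the drug and toxin group, 1.49, was 0.48 and 0.68 with the expression limits and 0.10 without genes whose SE is over 1. The SE is computed from the fold, and the limit on SE takes out every member with a log2 fold over 2. The medians under that limit are therefore no separate check. In all, 27 of 30 alternatives for the medians by role kept their sign and moved by less than the group's median SE, which was 1.42 in that group. None of 102 alternatives for 39 named genes passed the threshold, the smallest adjusted p being 0.134. They were the F distribution, adjustment over genes with a mean log2 CPM of at least 0, and subtraction of the median fold of all genes. That median was 0, so subtraction returned the deposited values, 0.134 among them, and left the medians by role unchanged. With the F distribution no gene of the whole table passed, so only the adjustment over expressed genes could have changed a call. The cause of the shifts in the medians was not tested. Libraries could not be left out in turn without values per library. No paired analysis was possible because the table holds no values per library and the labels give each mouse its own number. The unknown depth limits the genes of low count most.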

Other observations

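P450 genes with other names were outside the rule. In the authors' deposited table Cyp51, the demethylase of cholesterol synthesis, had a log2 fold of -0.05 ± 0.28, the thromboxane synthase gene Tbxas1 -0.03 ± 0.32 and the prostacyclin synthase gene Ptgis 0.36 ± 0.31, and each had an adjusted p of 1.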
